A study of Mus musculus with 20 samples.

Results

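Apoptotic cells are cleared by phagocytes that read phosphatidylserine on the outer face of the dying cell, and the TAM receptors (TYRO3, AXL and MERTK) are receptor tyrosine kinases that do so through bridging proteins. GAS6 and protein S (*Pros1*) attach to phosphatidylserine by a vitamin K dependent Gla domain and engage the receptors. GAS6 can engage each of the TAM receptors, whereas protein S engages MERTK and TYRO3 but not AXL. MFG-E8 (*Mfge8*) bridges phosphatidylserine to alpha v integrins instead. In the healthy central nervous system *Mertk* is a homeostatic microglial receptor, and *Axl* is known as a receptor of activated or inflamed phagocytes. The 5 genes described here are the receptors *Axl* and *Mertk* and the bridging proteins *Gas6*, *Pros1* and *Mfge8*. They were chosen by name, and all 5 were found among the 16810 genes of the deposited table.

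Microglia were sorted as eGFP-high cells from heterozygous CX3CR1+/eGFP mice on a C57BL/6 background, in which eGFP replaces 1 copy of *Cx3cr1*. All mice were adult males, 12 weeks of age. The 20 libraries fall into 7 groups: non-injured cord (NI, 3 libraries), lateral hemisection (HS) at 72 h (3), 1 week (2) and 2 weeks (3), and full transection (FT) at 72 h, 1 week and 2 weeks (3 each). Injured cords were lesioned at a thoracic level, a segment around the lesion was taken, and NI gave the equivalent segment without surgery, so that HS and FT differ from NI by the operation as well as by the lesion. The methods count more mice than libraries, so a library appears to hold RNA from several mice, and p-values measure the spread between libraries. eGFP also marks monocytes, and the markers of these cells are given beside the results.

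Values are CPM (reads scaled by a library size that the authors' edgeR normalization adjusted), over 3.87 to 34.1 M reads (mega-reads) per library. The columns did not share a total. They summed to 777426 to 830481 CPM in NI and to 878070 to 1202186 CPM in the injured libraries. Every NI total was thus below every injured total, and scaling all columns to 1 total lowers injured values relative to NI. That scaling was among the alternatives tried. The 8 defining microglial markers, among them *Tmem119* and *P2ry12*, summed to between 12824 and 27611 CPM in every library. Single markers differed from NI by limma: *Tmem119* was lower at 72 h after each lesion (1239 ± 37.1 CPM in NI against 537 ± 89.6 after HS and 566 ± 52.2 after FT, SD, n = 3), *P2ry12* was lower at 2 weeks after FT, and *Fcrls* was higher at 72 h after each lesion and at 1 week after FT. Replicates differed by 14.0 to 135 times the squared counting noise, over genes with at least 20 reads in both. FT 1 week replicate 1 differed most from the other libraries of its group (134 and 135 times, against 55.1 between those libraries), a comparison with no test, and it is named beside the values that it moves. At 72 h the 6 listed proliferation genes summed to 637 to 1134 CPM against 33.1 to 36.9 CPM in NI, and 6 of 6 were higher after each lesion.

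*Axl* rose after both lesions and at every time, and it rose further between 72 h and 2 weeks. *Gas6* rose early, and at 2 weeks after HS its libraries overlapped NI. In sorted pools a change in the number of cells that express a gene cannot be told apart from a change in RNA per cell. *Mertk*, *Pros1* and *Mfge8* did not pass the test in any comparison with NI, between times or between lesions. The label differentially expressed (DE) needs a limma p under 0.05 after Benjamini-Hochberg adjustment across the 16810 genes, together with a 2-fold or larger change. By that rule 2 of the 5 genes were higher than NI at 72 h after HS, where 9.08% of all genes were higher, and 2 of 5 at 72 h after FT (8.14% of all genes). At 1 week 1 of 5 was higher after HS (1.7% of all genes) and 2 of 5 after FT (2.86%). At 2 weeks 1 of 5 was higher after HS (2.43%) and 1 of 5 after FT (3.53%), and no member was lower in any of these 6 comparisons, where 4.31%, 0.482% and 0.797% of all genes were lower after HS and 4.09%, 1.2% and 1.36% after FT. The 6 comparisons share the NI libraries. Over all 7 groups, limma's moderated F test called *Axl* (adjusted p = 5.44e-08) and *Gas6* (adjusted p = 0.000422), as it did 20.6% of all genes, and not the other three.

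**Figure D1:**
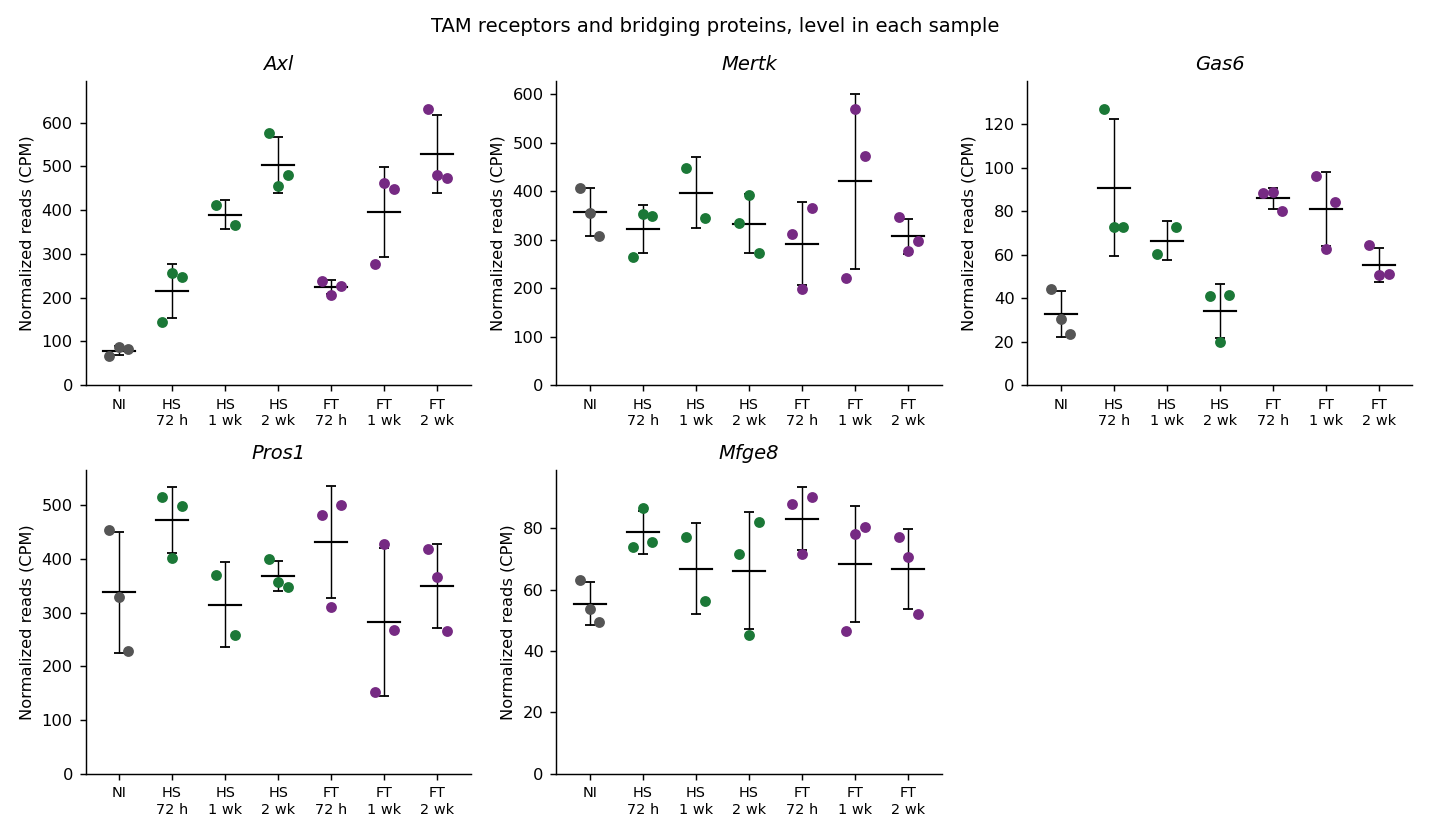
Level of *Axl*, *Mertk*, *Gas6*, *Pros1* and *Mfge8* in CPM on linear axes from 0, in each of the 20 libraries by group (NI grey, HS green, FT purple). Points are libraries, wide lines are group means and whiskers are SD. *Axl* climbed from 66.9 to 86.4 CPM in NI to 455 to 632 CPM at 2 weeks. The mean of *Gas6* was highest at 72 h after HS, through 1 library at 127 CPM. The other libraries of that group (72.7 and 72.6 CPM) lay below those at 72 h after FT (80.1 to 88.8 CPM). At 2 weeks after HS *Gas6* lay at 19.7 to 41.5 CPM.

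*Axl* (chromosome 7 of GRCm38, 25757273 to 25788705, minus strand) encodes the TAM receptor that responds to GAS6. Its level in the NI libraries was 66.9, 86.4 and 82.9 CPM. At 72 h it was 144, 255 and 246 CPM after HS and 238, 206 and 227 CPM after FT. Every 72 h library thus exceeded every NI library, and the lowest was HS 72 h replicate 1. At 1 week the level was 413 and 366 CPM after HS and 277, 463 and 449 CPM after FT, with FT replicate 1 the low one. At 2 weeks it was 576, 455 and 479 CPM after HS and 632, 480 and 473 CPM after FT. None of the 6 injured groups overlapped NI. That alone was common, since 24.0%, 20.2% and 14.5% of all genes lay wholly above NI at the 3 times after HS, and 22.2%, 11.4% and 17.3% after FT.

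Against NI, *Axl* was 2.65-fold higher at 72 h after HS (95% confidence interval 1.92 to 3.66, limma adjusted p = 7.90e-05), 4.95-fold at 1 week (3.45 to 7.09) and 6.37-fold at 2 weeks (4.62 to 8.79). After FT the folds were 2.84 (2.06 to 3.92, limma adjusted p = 4.14e-05), 4.91 (3.56 to 6.78) and 6.66 (4.82 to 9.19) at the same times. *Axl* is 1 of 167 genes (0.993% of the table) that were DE and higher in all 6 comparisons, and 1 of 30 genes (0.178%) whose fold also increased from 72 h to 1 week to 2 weeks after both lesions. These calls held when any 1 of the 20 libraries was left out. With every column scaled to 1 total, the 72 h rise after HS was 0.90 on the log2 scale (adjusted p = 0.00182), under the 2-fold limit.

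The later rise of *Axl* can be estimated without the NI mean, although the NI libraries still add to the shared estimate of the spread. At 2 weeks it was 2.40-fold above 72 h after HS (95% confidence interval 1.74 to 3.31, limma adjusted p = 0.000753), where 1.37% of all genes were called higher. After FT it was 2.34-fold above 72 h (1.70 to 3.23, limma adjusted p = 0.00122), where 1.13% were. The libraries of the compared times did not overlap after either lesion, as for 14.3% of all genes after HS and 12.9% after FT. From 72 h to 1 week the change was 1.86-fold after HS (adjusted p = 0.0263) and 1.73-fold after FT (adjusted p = 0.0408), past limma's threshold but under 2-fold. From 1 week to 2 weeks it was 0.37 on the log2 scale after HS (95% confidence interval -0.15 to 0.88) and 0.44 after FT (-0.025 to 0.90), and neither passed. No member was DE in these 4 pairs of times, in which 6.03%, 3.44%, 0.0119% and 0.0714% of all genes were, in the order given. Without HS 72 h replicate 1 the change from 72 h to 2 weeks after HS was 0.998 on the log2 scale, just under 2-fold. Without FT 1 week replicate 1 the change from 72 h to 1 week after FT was 1.03 and passed both limits. The change from 72 h to 1 week after HS passed both with quantile normalization (1.19), with every column scaled to 1 total (1.2), and without HS 72 h replicate 2 (1.04) or replicate 3 (1.02). In order of mean level the groups ran NI, HS 72 h, FT 72 h, HS 1 week, FT 1 week, HS 2 weeks and FT 2 weeks. The only neighbours in that order whose libraries did not overlap were NI against HS 72 h and FT 72 h against HS 1 week. The order was taken from these same means, and 24.0% of all genes lay wholly above NI at HS 72 h. The other pair compares different lesions, with 2 libraries at HS 1 week, and its share over all genes was not computed.

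*Mertk* (chromosome 2, 128698956 to 128802894, plus strand) encodes the TAM receptor that takes both GAS6 and protein S. It was 408, 355 and 308 CPM in NI. Early after injury, at 72 h, the libraries held 264, 354 and 349 CPM after HS and 312, 197 and 365 CPM after FT. Late, at 2 weeks, they held 335, 393 and 272 CPM after HS and 347, 277 and 298 CPM after FT. All of these groups overlapped NI. At 1 week it was 449 and 346 CPM after HS, and 220, 571 and 472 CPM after FT, the widest spread, where replicate 1 held the low value and replicate 2 the highest of all 20 libraries. The log2 differences from NI ran from -0.33 (FT 72 h, 95% confidence interval -0.91 to 0.25) to 0.15 (HS 1 week, -0.50 to 0.80), and the smallest limma adjusted p was 0.413. Every interval excluded a 2-fold change in either direction, and smaller changes are within them. With every column scaled to 1 total, *Mertk* was lower at 72 h by 0.66 on the log2 scale after HS (adjusted p = 0.0389) and by 0.80 after FT (adjusted p = 0.0172). With quantile normalization it was lower by 0.71 after HS (adjusted p = 0.0395) and by 0.82 after FT (adjusted p = 0.0209), with the median of all genes at -0.07 and -0.06. None of these 4 differences reached 2-fold, and under both scalings the 1 week differences changed sign. Equal totals moved the median of all genes at 72 h from -0.11 to -0.52 after HS and from -0.09 to -0.48 after FT. They also turned the share of DE genes that were higher from 67.8% to 16.2% after HS and from 66.6% to 18.5% after FT, and with quantile normalization that share was 58.0% and 58.1%.

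**Figure D2:**
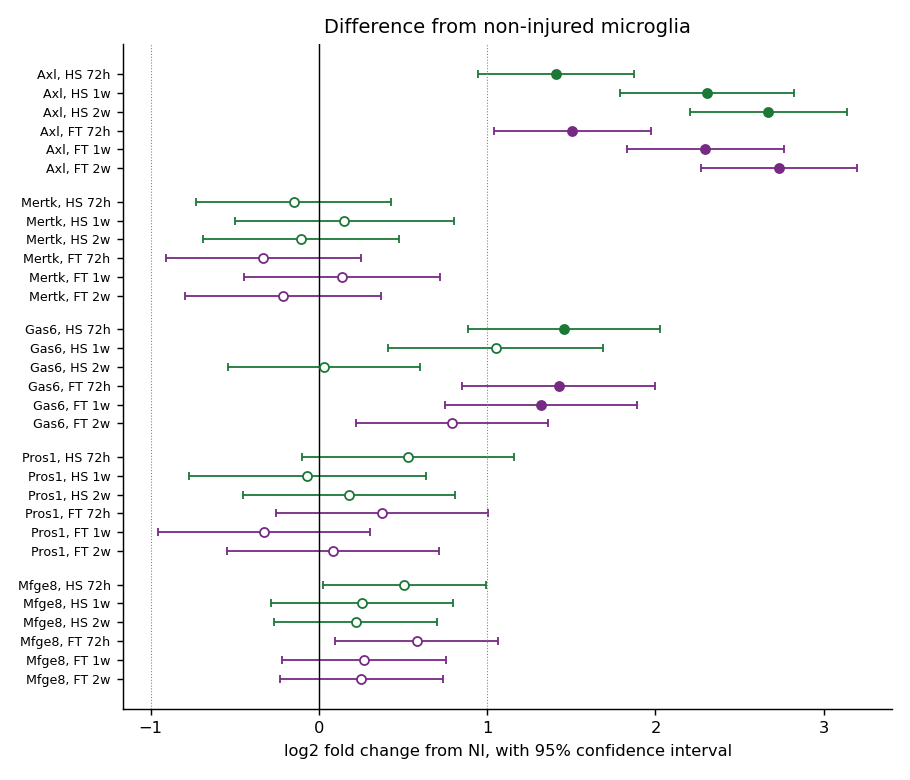
log2 fold change from NI of the 5 genes in the 6 injured groups, estimated by limma on log2(CPM + 0.5), with 95% confidence intervals as bars (HS green, FT purple). Filled points passed the adjusted p and the 2-fold limit, and dotted lines mark 2-fold. The filled points are the 6 of *Axl* (1.41 to 2.74) and 3 of *Gas6* (1.32 to 1.45).

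The balance of the receptors within a library shifted toward *Axl*. A ratio within a library does not depend on the scaling of its column. The *Axl* to *Mertk* ratio of CPM was 0.164, 0.243 and 0.269 in NI. At 72 h it was 0.545, 0.722 and 0.705 after HS and 0.763, 1.04 and 0.620 after FT. At 2 weeks it was 1.72, 1.16 and 1.76 after HS and 1.82, 1.73 and 1.59 after FT. All 17 injured libraries exceeded all 3 NI libraries, as they did for the level of *Axl* alone. The share of other gene pairs that separate in this way was not computed. The mean log2 ratio was 2.24 higher after injury (4.74-fold), with an exact permutation p of 0.00175, the smallest that 3 against 17 libraries can give (two-sided, adjusted over 6 ratio tests 0.00526). The 6 libraries at 72 h were 1.70 above NI on the log2 scale (exact permutation p = 0.0238, also the smallest possible, adjusted 0.0476). They were 0.56 times the 11 later libraries, a log2 difference of -0.84 (exact permutation p = 0.00113, adjusted 0.00526), and those groups overlapped. The 1 week libraries lay between, at 0.920 and 1.06 after HS and 1.26, 0.811 and 0.951 after FT.

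Per kilobase of exon, which allows levels of different genes to be set side by side, NI microglia held 82.3 ± 11.5 CPM of *Mertk* and 82.6 ± 27.6 CPM of *Pros1* (SD, n = 3). *Axl* (15.6 ± 2.07), *Gas6* (12.8 ± 4.09) and *Mfge8* (11.8 ± 1.47) lay lower. The third receptor, *Tyro3*, was low, at 0.395 ± 0.0856 CPM per kilobase in NI and did not pass the test in any group. At 2 weeks *Axl* had reached 100.1 ± 12.8 CPM per kilobase after HS and 105 ± 17.9 after FT, above *Mertk* at 76.9 ± 13.9 and 70.9 ± 8.29 (SD, n = 3). The *Axl* to *Mertk* ratio per kilobase thus went from 0.194 in NI to 1.33 and 1.48, so that the order of their mean levels was inverted.

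**Figure D3:**
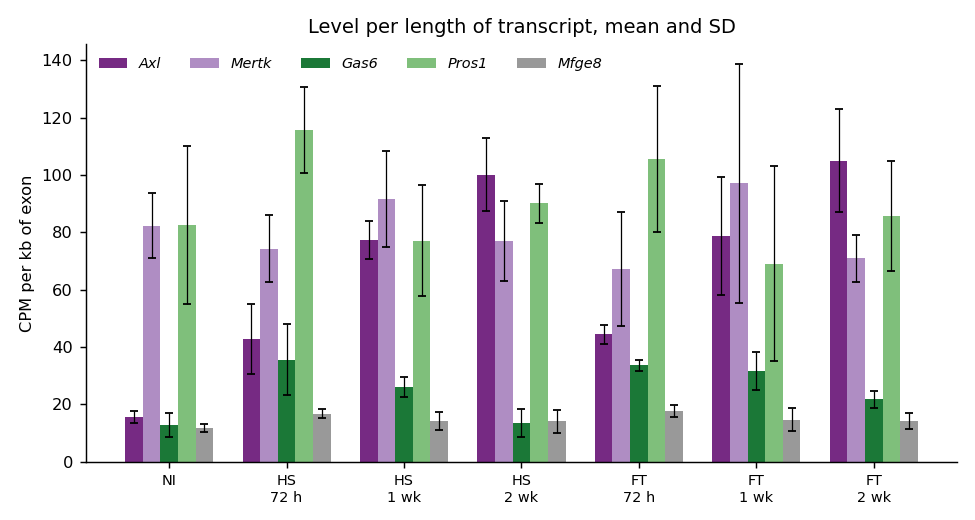
Mean level in CPM per kilobase of exon, with SD as whiskers, of the 5 genes in each group (n = 3, and 2 at HS 1 week). *Mertk* and *Pros1* were the highest in NI (82.3 and 82.6), and *Axl* passed *Mertk* at 2 weeks after both lesions (100.1 against 76.9, and 105 against 70.9).

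*Gas6* (chromosome 8, 13465374 to 13494490, minus strand) encodes the ligand shared by AXL and MERTK. Its NI level was 44.1, 30.2 and 23.7 CPM. At 72 h it was 127, 72.7 and 72.6 CPM after HS and 88.5, 88.8 and 80.1 CPM after FT. All 6 early libraries exceeded all NI libraries, and HS replicate 1 was the highest of the 20. At 1 week it was 60.0 and 72.7 CPM after HS and 96.1, 62.6 and 84.1 CPM after FT, still above NI throughout. At 2 weeks it was 41.0, 19.7 and 41.5 CPM after HS, which overlapped NI, and 64.4, 50.6 and 51.2 CPM after FT, which did not. Lying wholly above NI was common, for 24.0% of all genes at 72 h and 20.2% at 1 week after HS. After FT the share of all genes was 22.2% at 72 h, 11.4% at 1 week and 17.3% at 2 weeks.

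*Gas6* was 2.74-fold above NI at 72 h after HS (95% confidence interval 1.85 to 4.07, limma adjusted p = 0.000453) and 2.68-fold after FT (1.81 to 3.99, limma adjusted p = 0.000631). At 1 week after FT it was 2.49-fold above NI (1.68 to 3.71, limma adjusted p = 0.00373). At 1 week after HS the difference was 1.05 on the log2 scale with a limma adjusted p of 0.0768, which became 1.29 and passed when NI replicate 1, the highest NI library, was left out. It also passed without HS 2 weeks replicate 2 and by DESeq2 and the edgeR likelihood ratio test. At 2 weeks the log2 differences were 0.03 after HS (-0.54 to 0.60) and 0.79 after FT (0.22 to 1.36, adjusted p = 0.0881), and the second became 1.03 and passed without NI replicate 1. Between 72 h and 2 weeks after HS *Gas6* fell by 1.43 on the log2 scale (limma adjusted p = 0.00176), where 3.37% of all genes were called lower. After FT, where 2.68% of all genes were lower, the corresponding difference was -0.63 (adjusted p = 0.198). With every column scaled to 1 total, the 3 rises above NI were 0.95 to 0.98 on the log2 scale (adjusted p 0.00982 to 0.0260), just under the 2-fold limit. Exons of *Gas6* overlap those of *Tmem255b* on the opposite strand, a gene not listed in the table, and the strandedness of the libraries is not stated, so reads in the shared stretch cannot be told apart.

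At 72 h, when the mean of *Gas6* was highest after each lesion, other signals also differed from NI. The 8 markers of monocytes and monocyte-derived macrophages summed to 72.5 to 146 CPM after HS and 102 to 313 CPM after FT, against 22.3 to 37.1 CPM in NI, with 4 of 8 called higher after HS and 8 of 8 after FT. At 1 and 2 weeks that sum was 26.8 to 78.4 CPM. The 7 border-associated macrophage markers in the table summed to 203 to 218 CPM in NI, 191 to 354 CPM at 72 h and 52.5 to 83.8 CPM at 2 weeks, when 6 of 7 were lower after each lesion and *Axl* was highest. The seventh, *Folr2*, was called higher at 72 h and 1 week after each lesion and at 2 weeks after FT, and its 2 week FT libraries held 14.9 to 20.8 CPM against 3.87 to 8.62 CPM in NI. The 8 astrocyte markers summed to 399 to 675 CPM in NI, 295 to 571 CPM at 72 h after HS and 472 to 692 CPM at 72 h after FT. At 72 h 1 was higher (*Gfap*) and 3 were lower after HS, and 2 were higher (*Gfap* and *Aldh1l1*) and 2 lower after FT. At 2 weeks the sum was 165 to 310 CPM, with 5 of 8 lower after each lesion. The 6 neuron markers summed to 34.1 to 57.7 CPM in NI, 13.1 to 30.7 CPM at 72 h and 9.51 to 29.1 CPM at 2 weeks. The 7 oligodendrocyte markers summed to 1139 to 2324 CPM in NI and overlapped it at 72 h, at 606 to 2067 CPM after HS and 1034 to 1475 CPM after FT. For the 6 measured neutrophil markers the sum was 25.5 to 93.7 CPM in NI. At 2 weeks it was 30.1 to 96.4 CPM after HS and 7.02 to 262 CPM after FT. Lymphocyte markers (7) summed to 5.24 to 6.82 CPM in NI and 5.33 to 16.7 CPM at 2 weeks. Endothelium markers (7) summed to 43.3 to 59.7 CPM in NI and 37.3 to 60.7 CPM at 2 weeks. No listed marker was at 0 in every library of a group. The 7 dissociation and stress genes summed to 3750 to 6180 CPM in NI and 1907 to 2731 CPM at 72 h, with 3 of 7 lower after each lesion. The part of these signals in the changes of *Axl* and *Gas6* was not tested.

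*Pros1* (chromosome 16, 62854307 to 62929346, plus strand) encodes protein S, the other Gla-domain ligand. It was 455, 330 and 229 CPM in NI. The 72 h libraries held 515, 402 and 500 CPM after HS and 482, 311 and 501 CPM after FT. At 1 week it was 371 and 259 CPM after HS and 152, 428 and 268 CPM after FT. The NI libraries spread widely, and every one of these groups overlapped them. The 2 week libraries held 400, 357 and 349 CPM after HS and 419, 367 and 265 CPM after FT. The log2 differences from NI ran from -0.33 (FT 1 week, 95% confidence interval -0.96 to 0.30) to 0.53 (HS 72 h, -0.10 to 1.16), and none passed. Their sign is not firm, since with quantile normalization the differences after HS at 72 h and 2 weeks and after FT at 72 h and 2 weeks fell below 0. The steepest difference between times was -0.70 from 72 h to 1 week after FT (limma adjusted p = 0.194). Without FT 1 week replicate 2, the highest of its group, it was -1.06 and passed.

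The ratio of the Gla-domain ligands, *Gas6* to *Pros1* in CPM, was 0.0970, 0.0917 and 0.103 in NI. At 72 h it was 0.247, 0.181 and 0.145 after HS and 0.184, 0.285 and 0.160 after FT, all above NI. The share of other gene pairs that do so was not computed. The mean log2 ratio at 72 h was 0.99 above NI (1.98-fold), with an exact permutation p of 0.0238, the smallest that 3 against 6 libraries can give (adjusted over 6 ratio tests 0.0357). Over all 17 injured libraries the difference was 0.87 (exact permutation p = 0.0649, adjusted 0.0779), and HS 2 weeks, at 0.102, 0.0551 and 0.119, overlapped NI. Without HS 2 weeks replicate 2 it was 0.97 with an exact permutation p of 0.00413. The 72 h and the later libraries differed by 0.18 (exact permutation p = 0.647). The ratio was highest, at 0.633, in FT 1 week replicate 1, the library that differed most from its group.

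**Figure D4:**
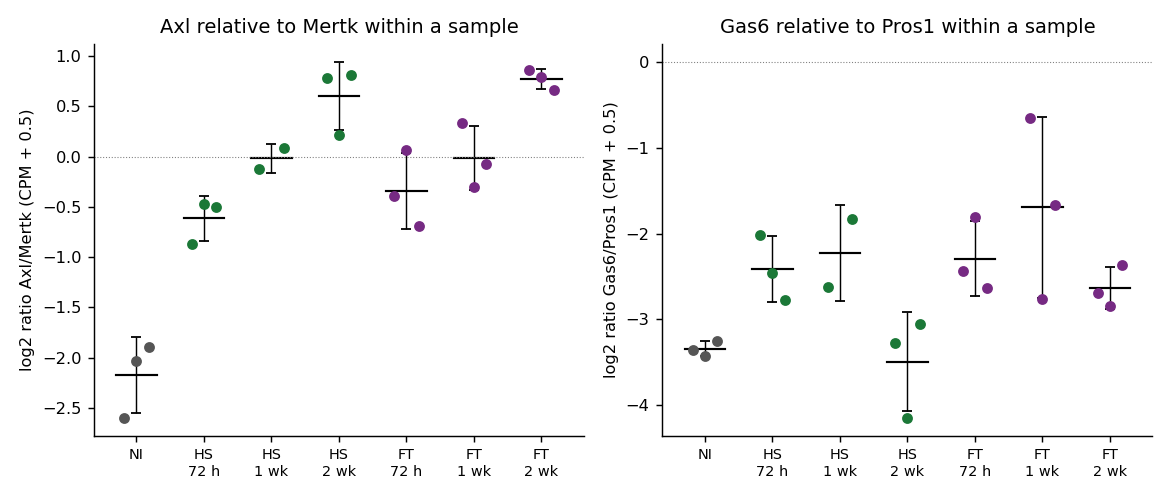
Within-library log2 ratio of *Axl* to *Mertk* (left) and of *Gas6* to *Pros1* (right), from CPM + 0.5, by group (NI grey, HS green, FT purple; points are libraries, wide lines means, whiskers SD, and the dotted line marks equal CPM). All 17 injured libraries lie above NI on the left, whereas on the right the HS 2 weeks libraries overlap NI.

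*Mfge8* (chromosome 7, 79133768 to 79149060, minus strand) encodes the bridge to alpha v integrins. It was 63.0, 53.8 and 49.5 CPM in NI. The 72 h libraries had 73.9, 86.8 and 75.6 CPM after HS and 88.0, 71.6 and 90.1 CPM after FT. These 6 libraries all exceeded NI, as 24.0% and 22.2% of all genes did. The log2 differences were 0.51 after HS (95% confidence interval 0.022 to 0.99, limma adjusted p = 0.111) and 0.58 after FT (0.097 to 1.07, limma adjusted p = 0.0742), so the test was not passed. They were 0.22 and 0.33 with quantile normalization, and 0.0012 and 0.11 with every column scaled to 1 total. At 1 week it was 77.3 and 56.3 CPM after HS and 46.7, 78.3 and 80.5 CPM after FT. The 2 week libraries had 71.6, 45.1 and 82.0 CPM after HS and 77.3, 70.7 and 52.1 CPM after FT. All later groups overlapped NI. Their log2 differences were 0.22 to 0.27, and with every column scaled to 1 total 3 of these 4 changed sign.

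The partners of MFG-E8 were in the table as well: the integrin subunits *Itgav*, *Itgb3* and *Itgb5*, and the homologous bridging protein *Edil3*. In NI they had 152 ± 18.2, 61.7 ± 4.67, 924 ± 48.7 and 9.72 ± 5.29 CPM (SD, n = 3). None was DE in the 6 comparisons with NI by limma, and 11 of the 24 differences had an unadjusted p under 0.05. Among all genes 39.3%, 12.8% and 16.1% had such a p at the 3 times after HS. After FT 36.6%, 18.2% and 19.1% did. Of the 24 differences, the edgeR quasi-likelihood and likelihood ratio tests called 1 each and DESeq2 called 2. *Itgav* was lower at 72 h by 0.45 on the log2 scale after HS (adjusted p = 0.0407) and by 0.47 after FT (adjusted p = 0.0350), less than 2-fold. *Edil3* had group means of 3.57 to 4.43 CPM after injury, with log2 differences of -0.96 to -1.37 and adjusted p of 0.0592 to 0.278.

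No difference between HS and FT was detected for these genes. Of the 15 differences between FT and HS at matched times, limma called 0, as it called 0.0% of all genes at each time. The edgeR tests and DESeq2 also called 0 of the 15, and 1 had an unadjusted p under 0.05. Such a p was held by 3.0%, 4.31% and 2.61% of all genes at 72 h, 1 week and 2 weeks. For *Axl* the FT to HS fold was 1.07 at 72 h (95% confidence interval 0.776 to 1.48), 0.993 at 1 week (0.693 to 1.42) and 1.05 at 2 weeks (0.757 to 1.44). The difference with an unadjusted p under 0.05 was *Gas6* at 2 weeks, 1.69-fold higher after FT (1.14 to 2.52, unadjusted p 0.0114, adjusted p = 0.9998 by limma), with all 3 FT libraries above all 3 HS libraries, as in 4.45% of all genes. The test of whether the severity effect changed over time called 0 of the 5 genes and 0.0% of all genes, and its smallest unadjusted limma p was 0.146, for *Gas6*.

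Other genes of apoptotic cell recognition were followed in lists that hold 58 measured genes. Of 348 differences from NI, 32 were called by limma (9.2%, against 6.66% over all genes in the same 6 comparisons), and the calls sat in few genes. Galectin-3 (*Lgals3*), described as a further TAM ligand, was higher in all 6 comparisons. Its mean was 8.13 ± 2.22 CPM in NI (SD, n = 3), 93.0 ± 37.3 CPM in HS 72 h and 124 ± 61.7 CPM in FT 72 h, and 145 ± 26.7 and 151 ± 25.5 CPM at 2 weeks. Its mean at 1 week was 55.6 ± 6.79 CPM after HS (n = 2) and 79.2 ± 25.5 CPM after FT (n = 3). *Tub* and *Tulp1*, whose products are further candidate TAM ligands, stayed at or under 2.57 CPM.

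Of 14 other receptors for phosphatidylserine or apoptotic cells, 2 were higher in all 6 comparisons, the CD300 family members *Cd300lf* and *Cd300lb*. *Cd300lf* had 5.60 ± 0.819 CPM in NI, and its 72 h level was 41.7 ± 3.22 CPM after HS and 49.3 ± 22.9 CPM after FT, and *Cd300lb* went from 5.11 ± 0.986 CPM to 29.1 ± 6.01 and 28.5 ± 8.36 CPM (SD, n = 3). Both were also called under every alternative scaling, pseudocount, filter and count test, but *Cd300lb* at 1 week after HS was not without HS 1 week replicate 1 (1.55 on the log2 scale, adjusted p = 0.153). *Bai1*, a phosphatidylserine receptor, was called lower at 72 h after HS (0.712 ± 0.374 against 2.14 ± 0.158 CPM, limma adjusted p = 0.0114), on 2 to 18 reads per library. That call was lost with 1 CPM added, with quantile normalization or without HS 72 h replicate 3. *Timd4*, the receptor TIM-4 of resident macrophages, had 2.53 ± 0.806 CPM in NI and was not called against it by limma, nor were the remaining 10 of the 14. Limma made 13 calls in the 84 differences from NI of this list (15.5%, against 6.66% over all genes), and each edgeR test and DESeq2 made 15. Between 72 h and 2 weeks after HS *Timd4* fell from 4.81 ± 1.38 to 1.25 ± 0.359 CPM (limma adjusted p = 0.00333). The scavenger receptor *Stab1* fell from 717 ± 114 to 294 ± 25.6 CPM after HS (adjusted p = 0.000509) and from 789 ± 228 to 347 ± 81.5 CPM after FT (adjusted p = 0.00158). These lists held 4 limma calls between times in 348 differences (1.15%, against 3.02% over all genes).

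Among 10 genes of the engulfment machinery 1 was called: *Abca1*, the cholesterol exporter that macrophages raise after taking up apoptotic cells. It had 152 ± 7.24 CPM in NI and 359 ± 51.1 CPM at 72 h, 544 ± 90.5 CPM at 1 week and 411 ± 64.6 CPM at 2 weeks after FT (SD, n = 3). After HS it was called at 1 week (392 ± 26.9 CPM, n = 2) and 2 weeks (346 ± 64.3 CPM, n = 3) but not at 72 h. These 5 calls were 8.33% of the 60 differences from NI in the list, against 6.66% over all genes. With quantile normalization or every column at 1 total, the rises of *Abca1* at 72 h after FT and at 2 weeks after HS were under 2-fold. *Socs1*, a brake on cytokine signalling, was called lower at 72 h after HS than in NI and than at 2 weeks, but on 2 to 4 reads per library at 72 h, and both calls were lost under several alternatives. *S1pr1*, a receptor for a lipid find-me signal, was higher at 72 h after HS (78.6 ± 11.2 against 36.3 ± 6.93 CPM, limma adjusted p = 0.000223), under 2-fold with the same scalings. The lists for vitamin K dependent carboxylation (3 genes), receptor shedding (2) and nuclear receptors (8) held no call by limma, either edgeR test or DESeq2. Of their differences from NI, 5 of 18, 7 of 12 and 4 of 48 had an unadjusted p under 0.05. Among all genes 39.3%, 12.8% and 16.1% had such a p at 72 h, 1 week and 2 weeks after HS. After FT 36.6%, 18.2% and 19.1% did. Without the fold limit, 3, 1 and 1 of the differences in these lists passed the limma adjusted p. Of all genes 27.3%, 2.68% and 4.99% passed it at those times after HS, and 24.2%, 7.03% and 8.17% after FT.

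The genes whose pattern over the 20 libraries was most like that of *Axl* were *Chst2*, *Cd22* and *Etl4*, with Pearson r of 0.975, 0.969 and 0.965 on log2(CPM + 0.5) among 14050 genes. The lectin gene *Cd22*, for example, had a mean of 15.1 CPM in NI, 40.0 CPM in HS 72 h and 94.8 CPM in HS 2 weeks. For *Gas6* they were *1810043G02Rik*, *Hcfc1r1* and *Rapsn* (r 0.847, 0.847 and 0.840). For *Mertk* they were *Fyttd1*, *Lrch3* and *Krit1* (r 0.930, 0.903 and 0.879), for *Pros1* *Sucla2*, *Gnai3* and *Prps1l3* (r 0.917, 0.915 and 0.906), and for *Mfge8* *Sgta*, *Scly* and *D2Wsu81e* (r 0.930, 0.919 and 0.916). Among the 5 genes themselves the highest r was 0.67, between *Pros1* and *Mfge8*, and that between *Axl* and *Gas6* was 0.11. These correlations are descriptions over libraries that share groups and scaling.

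*Axl* and *Gas6* are the receptor and ligand that rose together at 72 h, and the 250 bases before their RefSeq transcript starts (GRCm38.p6) are shown for the promoters of both. Capitals mark the GC box letters GGGCGG, read on either strand, so that CCGCCC is the same motif on the other strand. *Axl* lies at chr7:25788734-25788983 and *Gas6* at chr8:13494536-13494785, both written along the minus strand, 5′ to 3′.
Axl: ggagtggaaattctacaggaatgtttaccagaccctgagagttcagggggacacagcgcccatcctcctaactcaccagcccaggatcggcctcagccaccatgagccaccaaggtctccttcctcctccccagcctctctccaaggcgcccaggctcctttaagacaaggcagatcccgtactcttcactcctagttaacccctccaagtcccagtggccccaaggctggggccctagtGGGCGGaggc
Gas6: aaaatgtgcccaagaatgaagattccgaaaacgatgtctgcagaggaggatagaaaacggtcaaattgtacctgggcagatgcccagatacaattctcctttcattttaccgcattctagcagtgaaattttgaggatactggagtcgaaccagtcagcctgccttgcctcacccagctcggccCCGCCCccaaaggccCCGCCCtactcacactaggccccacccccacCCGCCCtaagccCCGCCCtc
The *Axl* window holds 1 GC box and the *Gas6* window 4, against at least 1 in 32.7% of 32851 RefSeq windows of this length. *Mertk*, *Pros1* and *Mfge8*, which were not called, hold 3, 5 and 4. The AP-1 letters TGACTCA (4.46% of windows) are in none of the 5 windows, and the letters TTCNNNGAA (7.02% of windows) only in that of *Pros1*. Both strands were searched, and no other motif searched overlaps the capitals in the windows shown.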

How the data were processed

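Normalized signal values were deposited by the authors, who removed adapters, mapped reads to mm10 with TopHat2 2.0.9, counted them per gene with HTSeq, dropped genes that did not reach 10 reads in 2 replicates or more, and normalized with edgeR. All 336200 values were whole multiples of the value of 1 read (tolerance 0.001 of a read), 0.0330 to 0.292 CPM by library, so whole reads were recovered for edgeR 4.0.16 and DESeq2 1.42.0.

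limma 3.58.1 was fitted with an intensity trend to log2(CPM + 0.5), 1 mean per group, over all 20 libraries. The fit was tested on simulated data. Alternatives were other pseudocounts (0.1 and 1), a filter on low values, other scalings, a replicate block, only the groups compared, the count tests and leaving out each library. Those for the other pathway genes were added after seeing the data. Ratios were compared by two-sided exact permutation tests (scipy 1.17.1). Gene positions and exon lengths came from GENCODE vM21 (GRCm38), and promoters from RefSeq, where all 5 genes matched. Of 150 listed genes, 146 were in the table. *Twist1*, *Twist2*, *Cd209f* and *Ly6g* were not.

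The 5 genes, the lists and the tests were chosen with earlier results of these data known. Named genes were the 5 members, up to 3 called genes per list and comparison with a mean of at least 1 CPM in 1 group, 6 genes set by name (*Tyro3*, *Itgav*, *Itgb3*, *Itgb5*, *Edil3*, *Timd4*), and the 3 most correlated genes per member. *Tub*, *Tulp1* and the marker examples were named after their values were seen. Replicate numbers gave no clear pairing of the libraries. Of same-numbered pairs, 20 of 57 had a correlation of deviations over 0.1 (median 0.0017), and of differently numbered pairs 43 of 114 (median 0.00065). The results of 1 other gene that the rule selects are not reported here.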

Additional observations from a re-analysis of the deposited data

Results flagged for a closer look

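The change of *Axl* from NI differed between times after each lesion by limma's test of that difference, which is the contrast between the times. After HS it was 0.898 higher at 1 week than at 72 h on the log2 scale (limma adjusted p = 0.0263) and 1.26 higher at 2 weeks (adjusted p = 0.000753). After FT it was 0.789 higher at 1 week (limma adjusted p = 0.0408) and 1.23 higher at 2 weeks (adjusted p = 0.00122). For *Gas6* the change from NI was lower at 2 weeks than at 72 h after HS, by -1.43 on the log2 scale (limma adjusted p = 0.00176). No group held 4 or more libraries, so Dixon's test for an outlying library was not run.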

How the results depend on the processing

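Of 32 alternatives, 31 kept the 9 calls of the 5 genes against NI within 1.5 times (range 5 to 11). The exception, every column scaled to 1 total, gave 5. The 3 calls between times became 5 without the fold limit, and the 32 calls of the other pathway genes became 52. The 0 calls between FT and HS, the 2 genes that varied over the groups and the 0 severity-by-time calls did not change. The *Axl* to *Mertk* ratio of injured against NI libraries stayed between 2.03 and 2.39, and between -0.95 and -0.77 for 72 h against later. The *Gas6* to *Pros1* ratio of injured against NI libraries ran from 0.75 to 0.97 as single libraries were left out. With any 1 of the NI libraries left out, the smallest p that the exact permutation tests of 72 h against NI can give is 0.0714. Both ratios then gave that p and did not pass. Leaving out an HS 1 week library leaves 1, assumed to vary like the other groups. The replicate block left these counts at 9, 3, 0 and 32. Pairing by replicate number was not clear from the correlations given above, and 9 of 20 samples correlated best with a library of their own number. The block turned 1 direction (*Mfge8*, FT minus HS at 1 week, -0.0049).

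Directions turned for differences that were not DE, all on the log2 scale, and the cause was not tested. With the count tests (edgeR quasi-likelihood, edgeR likelihood ratio and DESeq2), FT minus HS at 1 week was 0.024 for *Axl* and 0.084 for *Mertk*. With quantile normalization, *Axl* was -0.026 (FT minus HS, 2 weeks), *Mertk* -0.11 and -0.19 (HS and FT 1 week minus NI), *Gas6* -0.072 (HS 2 weeks minus NI), 0.025 (FT 1 week minus 72 h) and 0.020 (FT minus HS, 72 h), *Pros1* -0.029, -0.15, -0.13 and -0.30 (HS 72 h, HS 2 weeks, FT 72 h and FT 2 weeks minus NI) and *Mfge8* -0.067 and -0.00025 (FT minus HS, 1 and 2 weeks). With every column scaled to 1 total, the same differences of *Axl* were -0.0087, of *Mertk* -0.060 and -0.21, of *Gas6* -0.29, 0.018 and 0.0078, and of *Pros1*, without HS 72 h, -0.15, -0.094 and -0.32. *Mfge8* was then -0.11, -0.076 and -0.14 (HS 2 weeks, FT 1 week and FT 2 weeks minus NI), 0.046 (HS 1 week minus 72 h), and -0.12 and -0.038 (FT minus HS, 1 and 2 weeks).

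Leaving out single libraries turned the direction of these differences, which were not DE. For FT minus HS at 72 h, 1 week and 2 weeks the ranges were -0.17 to 0.24, -0.14 to 0.23 and -0.072 to 0.17 for *Axl*, and -0.36 to 0.078, -0.29 to 0.40 and -0.24 to 0.019 for *Mertk*. They were -0.28 to 0.065, -0.62 to 0.13 and -0.24 to 0.091 for *Pros1*, -0.17 to 0.24 at 72 h for *Gas6*, and -0.22 to 0.26 and -0.22 to 0.21 at 1 and 2 weeks for *Mfge8*. Against NI they were -0.037 to 0.34 (HS 1 week), -0.23 to 0.032 (HS 2 weeks) and -0.14 to 0.55 (FT 1 week) for *Mertk*, -0.18 to 0.38 (HS 2 weeks) for *Gas6*, and -0.33 to 0.19 (HS 1 week), -0.073 to 0.42 (HS 2 weeks), -0.69 to 0.059 (FT 1 week) and -0.17 to 0.32 (FT 2 weeks) for *Pros1*. Between times they were -0.092 to 0.18 (HS 2 weeks minus 72 h) and -0.14 to 0.30 (FT 2 weeks minus 72 h) for *Mertk*, -0.24 to 0.068 (FT 1 week minus 72 h) for *Gas6*, -0.012 to 0.50 (HS 2 weeks minus 1 week) for *Pros1*, and -0.27 to 0.21 (HS 2 weeks minus 1 week) and -0.27 to 0.15 (FT 2 weeks minus 1 week) for *Mfge8*. Depth limits *Gas6* most, at 92 reads in its shallowest value.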
